A study of Homo sapiens with 12 samples.

Results

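Enteroendocrine and tuft cells are the rare chemosensory and secretory cells of the intestinal lining, and 10 of their genes were followed in HT29 cells, a line from a human colorectal adenocarcinoma. The genes were NEUROG3, NEUROD1, INSM1, CHGA and SCG5 for enteroendocrine cells and POU2F3, POU2AF1, TRPM5, AVIL and PTGS1 for tuft cells, and all 10 symbols were matched to an Ensembl ID among the 60675 IDs of the count table. The genes were chosen by their measured CPM and fold changes in these same contrasts, known from an earlier look at the data, so their levels and fold changes are given as a description and without p-values. The 12 libraries fell into 4 groups of 3, all treated for 24 h. The vehicle group was given PBS that contained 2% DMSO. The other groups were given a low (20 µg/mL), medium (100 µg/mL) or high (500 µg/mL) amount of Aconitum carmichaeli Debeaux extracted in water (ACD, labelled ACDW). By the paper's methods the extract was also prepared in PBS with 2% DMSO, so DMSO was shared by all 4 groups. The question was how the transcriptome of an intestinal cell line responded to the extract at each dose. Every group was the same line, and nothing in the labels states whether the 3 libraries of a group came from separate cultures, so the spread between them may be technical.

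Enteroendocrine cells arise from the secretory branch of the crypt. ATOH1 opens that branch and is held down by Notch signaling, NEUROG3 then commits a progenitor to the enteroendocrine fate, and NEUROD1 and INSM1 act after it, before hormones are packed into granules with chromogranin A (CHGA) and secretogranin V (SCG5). Tuft cells depend on POU2F3, a POU-family factor that works with small coactivators of the POU2AF family. They sense the lumen through a taste-like cascade that ends at the cation channel TRPM5, bundle actin with advillin (AVIL) and make prostaglandins through cyclooxygenase 1 (PTGS1).

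The bases just before the transcription start are shown for 2 genes of the secretory branch that were lower at high dose, NEUROG3 and ATOH1, and for SUCNR1 and HES6, which hold the octamer of POU-family factors in this window. The search covered the 10 genes and the list genes that passed the test, where the table had an entry. Each sequence is the 250 bases before the start, 5′ to 3′ on the strand of the gene, from the RefSeq promoters of GRCh38.p14. Capitals mark CANNTG, the E-box read by factors such as ATOH1 and NEUROG3, in the NEUROG3 and ATOH1 sequences, and ATGCAAAT, the octamer, in the SUCNR1 and HES6 sequences. The windows are chr10:69573423-69573672 on the minus strand for NEUROG3, chr4:93828503-93828752 on the plus strand for ATOH1, chr3:151873393-151873642 on the plus strand for SUCNR1 and chr2:238240039-238240288 on the minus strand for HES6.
NEUROG3: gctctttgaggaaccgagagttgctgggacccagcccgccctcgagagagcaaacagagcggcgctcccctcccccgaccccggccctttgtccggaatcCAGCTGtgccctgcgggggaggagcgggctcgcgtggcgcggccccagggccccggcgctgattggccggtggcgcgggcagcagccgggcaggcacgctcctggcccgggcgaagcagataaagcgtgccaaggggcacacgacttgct
ATOH1: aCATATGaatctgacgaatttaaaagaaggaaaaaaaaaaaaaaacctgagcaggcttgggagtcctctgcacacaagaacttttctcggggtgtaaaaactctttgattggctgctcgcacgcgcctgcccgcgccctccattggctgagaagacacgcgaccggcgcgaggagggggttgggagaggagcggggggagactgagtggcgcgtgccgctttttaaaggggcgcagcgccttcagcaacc
SUCNR1: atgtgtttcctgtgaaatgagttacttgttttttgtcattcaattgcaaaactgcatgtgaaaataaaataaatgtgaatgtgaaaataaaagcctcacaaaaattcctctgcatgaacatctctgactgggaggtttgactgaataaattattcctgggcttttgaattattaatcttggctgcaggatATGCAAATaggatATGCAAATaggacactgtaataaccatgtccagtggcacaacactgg
HES6: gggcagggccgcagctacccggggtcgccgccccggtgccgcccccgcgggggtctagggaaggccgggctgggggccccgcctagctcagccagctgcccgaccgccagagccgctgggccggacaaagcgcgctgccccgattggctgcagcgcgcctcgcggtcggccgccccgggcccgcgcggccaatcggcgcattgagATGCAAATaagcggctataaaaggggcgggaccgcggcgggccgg
Both strands were searched. CANNTG was present in 61.8% and ATGCAAAT in 1.63% of 35116 RefSeq promoters of this length, and no match of one motif overlapped a match of the other in these 4 windows. NEUROG3 had 1 E-box (CAGCTG) from 150 to 145 bases before the start, and ATOH1 had 1 (CATATG) from 249 to 244 bases before it. E-boxes were not particular to these genes. The SUCNR1 window held 2 and the HES6 window 1, not capitalized here, and SOX4 had 2, JAG2 2, CHGA 1 and SCG5 1. NEUROD1, AVIL, PTGS1 and DLL4 had none. SUCNR1 had 2 octamers, from 60 to 53 and from 47 to 40 bases before the start, and HES6 had 1 from 45 to 38. Of the 10 genes, 6 had an entry in the promoter table (NEUROG3, NEUROD1, CHGA, SCG5, AVIL and PTGS1), and none of these held the octamer. Among the list genes searched, ATOH1, SOX4, DLL4 and JAG2 held no octamer either, and TFF3 had no entry. A match describes the letters of the window only, and binding was not measured.

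The libraries held 15941255 to 33866644 expected counts (median 23833237). High-dose replicate 2 was the shallowest and stood apart: its log2 differences from its group's other libraries had an SD of 0.496 over 10619 genes, against 0.102 to 0.283 in the other libraries. In that library, genes with a transcript under 1500 bases lay a median of 0.49 above the other high-dose libraries on the log2 scale and genes over 6000 bases lay 0.41 below, so high-dose calls and directions that changed without it are given beside the result. The mitochondrial ribosomal RNA MT-RNR2 took 8.54% to 9.63% of all counts in the high-dose libraries 1.66% to 1.84% in the medium-dose ones and at most 1.08% in the others. Its part in the high-dose results was not tested. Values are CPM, the counts per 1000000 on library sizes scaled by TMM, and a gene passed when its adjusted p was under 0.05 and its fold change over 1.5. The epithelial markers (7 of 7 detected) summed to 10428 to 12513 CPM over all libraries. The fibroblast markers, with COL1A2 and PDGFRA at 0, summed to at most 2.90 CPM. The neuron markers, with NEFL, NEFM and STMN2 at 0, summed to at most 2.77 CPM. The leukocyte markers, with MS4A1 at 0, summed to 1272 to 1897 CPM. Most of that sum was LYZ (1567 CPM on average), and CD68 was next (8.55 CPM).

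Several defining markers of both cell types were at or near 0, while POU2F3, POU2AF1, TRPM5 and NEUROG3 had counts in every library. NEUROD1 had 1 count in all 12 libraries, and CHGA had 0 to 4 counts per library. Among other defining genes, singled out after their values were seen, GNAT3, IL25 and GFI1B of tuft cells had 0 counts in every library, DCLK1 had 1 count and chromogranin B (CHGB) had 2 counts in all. These do not stand for their lists. Of 44 other tuft genes, 9 were at 0 in every library and 19 had enough counts for the fit. Of 68 other enteroendocrine genes, 12 were at 0 and 26 had enough counts. In the tuft list POU2AF3 (21.4 CPM on average over all libraries), IL17RB (19.0) and ALOX5 (15.7) were well above 0. With some genes of each list at 0 and others present, the genes followed here are described as genes of these cell types in a colorectal line. In bulk RNA, fewer cells of a type and less RNA per cell cannot be told apart.

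In the vehicle libraries, the level per kilobase of the canonical transcript ran from POU2AF1 at 1.66 ± 0.0944 CPM per kb (SD, n = 3) and PTGS1 at 1.51 ± 0.106, through NEUROG3 at 0.846 ± 0.164, to AVIL at 0.364 ± 0.0550 and POU2F3 at 0.300 ± 0.0972. INSM1 followed at 0.220 ± 0.0876 CPM per kb, TRPM5 at 0.181 ± 0.0146, SCG5 at 0.149 ± 0.0301, CHGA at 0.0323 ± 0.0332 and NEUROD1 at 0.00587 ± 0.0102. The ranges of neighbours overlapped except between PTGS1 and NEUROG3, between NEUROG3 and AVIL and between SCG5 and CHGA. With 500 µg/mL, POU2F3 (0.715 ± 0.245 CPM per kb) stood above NEUROG3 (0.390 ± 0.0907), the reverse of their order in vehicle, and PTGS1 (2.13 ± 0.591) stood above POU2AF1 (1.02 ± 0.0738).

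**Figure D1:**
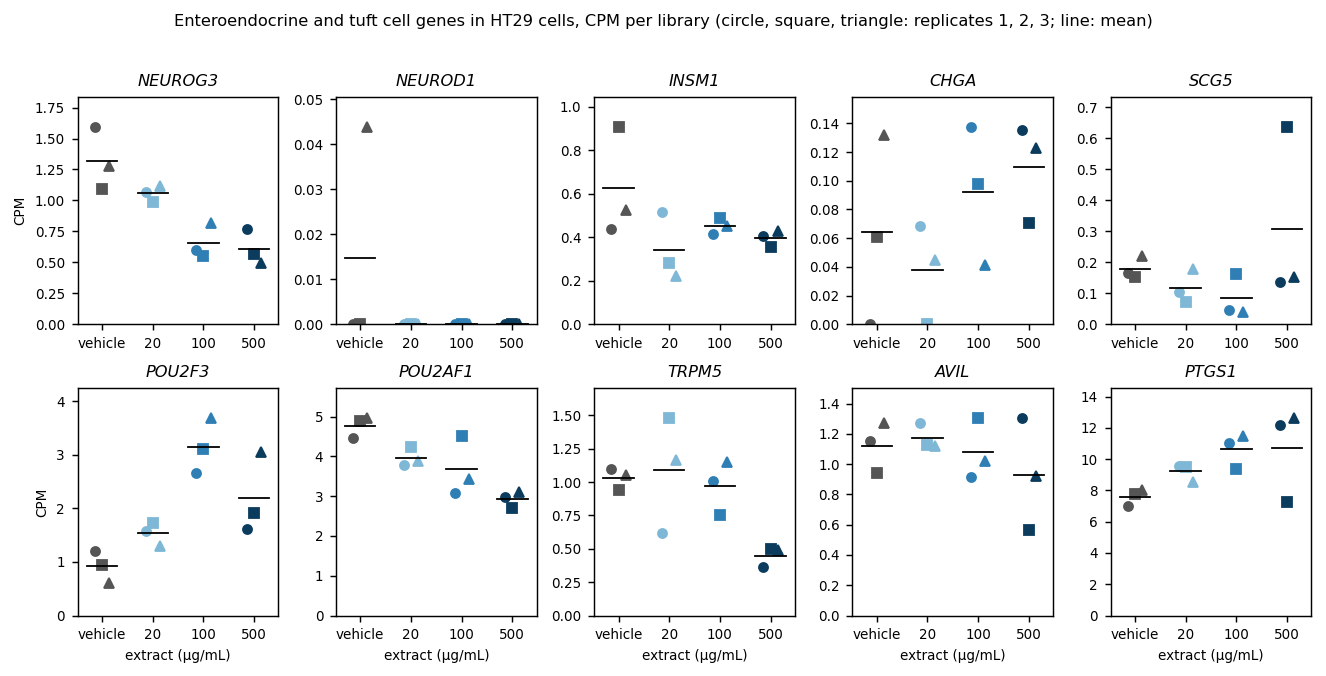
CPM of the 10 genes in each library (y axis, starting at 0, with its own scale per gene) by extract concentration in µg/mL (x axis); symbols are replicates 1, 2 and 3 and the line is the group mean. NEUROG3, POU2AF1 and TRPM5 lie lowest at 500 µg/mL, POU2F3 is highest at 100 µg/mL (2.66 to 3.69 CPM), and the high-dose replicate 2 point of PTGS1 (7.29 CPM) lies apart from the other high-dose points (12.2 and 12.6 CPM).

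Of the 10 genes, 7 had enough counts for the fit over 15374 genes, and NEUROD1, CHGA and SCG5 did not. With 500 µg/mL, 3 passed both thresholds, POU2F3 above and NEUROG3 and POU2AF1 below vehicle, where 2.93% of all genes passed (1.26% above and 1.68% below). At the medium dose 1 passed, POU2F3 (0.676% of all genes, with 0.384% above and 0.293% below), and at low dose 0 did (0.111%, with 0.0650% above and 0.0455% below), by edgeR as by DESeq2. These contrasts chose the genes, so nothing is read from the counts. At the high dose the vehicle and treated libraries did not overlap for 5 of the 7 (POU2F3 above, NEUROG3, POU2AF1, TRPM5 and INSM1 below), as for 22.0% of all genes (10.5% above and 11.5% below). The medium-dose libraries lay clear of vehicle for POU2F3 and PTGS1 (above) and NEUROG3 (below), as for 28.7% of all genes (14.5% above and 14.1% below). The low-dose ones did so for POU2F3 and PTGS1 (above) and POU2AF1 (below), as for 21.0% (11.4% above and 9.61% below). The 3 doses share the vehicle libraries and are not independent of each other. Across the 7 genes the median log2 fold change was 0.08 at low dose, −0.09 at medium dose and −0.69 at high dose, beside −0.00, −0.01 and 0.01 over all genes tested. The genes were chosen by these fold changes and moved in both directions, so nothing is read from the medians either.

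NEUROG3 (ENSG00000122859, chr10:69571698-69573422 on the minus strand of GRCh38, 2 exons), the specifier of the enteroendocrine lineage, was lower at the upper doses. Its counts were 29, 36 and 29 in vehicle, 31, 28 and 25 at low dose, 13, 17 and 20 at medium dose and 17, 8 and 16 at high dose. In CPM these were 1.60, 1.09 and 1.27 in vehicle, 1.06, 0.987 and 1.12 at low dose, 0.597, 0.555 and 0.819 at medium dose and 0.765, 0.566 and 0.492 at high dose. Every medium-dose and high-dose library lay below every vehicle library, whereas the low-dose range overlapped that of vehicle. The mean was 1.32 ± 0.256 CPM (SD, n = 3) in vehicle, 0.657 ± 0.142 at medium dose and 0.608 ± 0.141 at high dose. The log2 fold change was −0.30 (SE 0.23) at low dose, −0.99 (SE 0.24) at medium dose and −1.10 (SE 0.25) at high dose, which is 2.15-fold lower. The summed counts were 94 in vehicle and 41 at high dose, with exact Poisson 95% intervals of 76.0 to 115 and 29.4 to 55.6, which cover counting error only. NEUROG3 did not pass at high dose without vehicle replicate 1 (−0.96), vehicle replicate 3 (−1.11) or high-dose replicate 3 (−0.93), and it passed at medium dose without high-dose replicate 2 (−0.98).

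The factors and granule proteins that follow NEUROG3 were scarce. INSM1 (chr20:20368104-20370949), a zinc finger factor of endocrine precursors, had 8, 30 and 12 counts in vehicle, 15, 8 and 5 at low dose, 9, 15 and 11 at medium dose and 9, 5 and 14 at high dose. Vehicle replicate 2 held most of the vehicle counts, and its 0.909 CPM stood above the other 2 vehicle libraries (0.440 and 0.527). The high-dose libraries (0.354 to 0.430 CPM) lay below all of the vehicle ones, and the log2 fold change of −0.69 (SE 0.36) at high dose became −0.26 without vehicle replicate 2. INSM1 did not pass at any dose. NEUROD1, an effector of endocrine differentiation, had its 1 count in vehicle replicate 3 and 0 counts in the 9 treated libraries, which allows a level of up to 0.0133 CPM over them (3 counts).

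CHGA, the chromogranin of dense-core granules, summed to 5 counts in vehicle, 3 at low dose, 7 at medium dose and 8 at high dose. The exact Poisson 95% intervals of the first and last sums, 1.62 to 11.7 and 3.45 to 15.8 counts, overlapped, so that no difference was detectable at this depth. SCG5, the chaperone of the prohormone convertase PCSK2, had 3, 5 and 5 counts in vehicle, 3, 2 and 4 at low dose, 1, 5 and 1 at medium dose and 3, 9 and 5 at high dose. Its highest library was high-dose replicate 2 at 0.637 CPM, beside 0.135 and 0.154 in the other high-dose libraries, and the SCG5 transcript is one of those under 1500 bases (1198 bases). The library ranges of CHGA and of SCG5 overlapped between vehicle and every dose.

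POU2F3 (ENSG00000137709, chr11:120236640-120319945 on the plus strand, 13 exons), the tuft lineage factor, moved the other way. Its counts were 22, 31 and 14 in vehicle, 46, 49 and 29 at low dose, 58, 95 and 90 at medium dose and 36, 27 and 99 at high dose. In CPM these were 1.21, 0.940 and 0.615 in vehicle, 1.58, 1.73 and 1.30 at low dose, 2.66, 3.10 and 3.69 at medium dose and 1.62, 1.91 and 3.04 at high dose. All 9 treated libraries lay above all vehicle libraries, and the medium-dose mean (3.15 ± 0.513 CPM) was above the high-dose mean (2.19 ± 0.752 CPM) although their ranges overlapped. The log2 fold change was 0.76 (SE 0.29) at low dose, 1.79 (SE 0.28) at medium dose and 1.30 (SE 0.29) at high dose, or 3.45-fold and 2.47-fold higher at the latter doses. The gene did not pass at medium dose without vehicle replicate 2 (1.82). It did not pass at high dose without vehicle replicate 2 (1.34), vehicle replicate 3 (1.10) or high-dose replicate 3 (0.94), nor with the replicate number as a block.

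POU2AF1 (ENSG00000110777, chr11:111352255-111455630 on the minus strand, 5 exons), a coactivator of octamer-binding POU factors best known from B cells, was lowest at high dose. Its counts were 81, 161 and 113 in vehicle, 110, 120 and 87 at low dose, 67, 138 and 84 at medium dose and 66, 38 and 101 at high dose. The CPM were 4.46, 4.88 and 4.97 in vehicle, 3.78, 4.23 and 3.89 at low dose, 3.08, 4.50 and 3.44 at medium dose and 2.97, 2.69 and 3.11 at high dose. The low-dose and high-dose libraries lay below all vehicle libraries, and medium-dose replicate 2 lay within the vehicle range. The log2 fold change was −0.27 (SE 0.14), −0.37 (SE 0.14) and −0.70 (SE 0.14) in order of dose, the last being 1.62-fold lower. POU2AF1 did not pass at high dose without vehicle replicate 2 (−0.67) or vehicle replicate 3 (−0.66). The B cell marker MS4A1 was at 0 in all libraries.

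**Figure D2:**
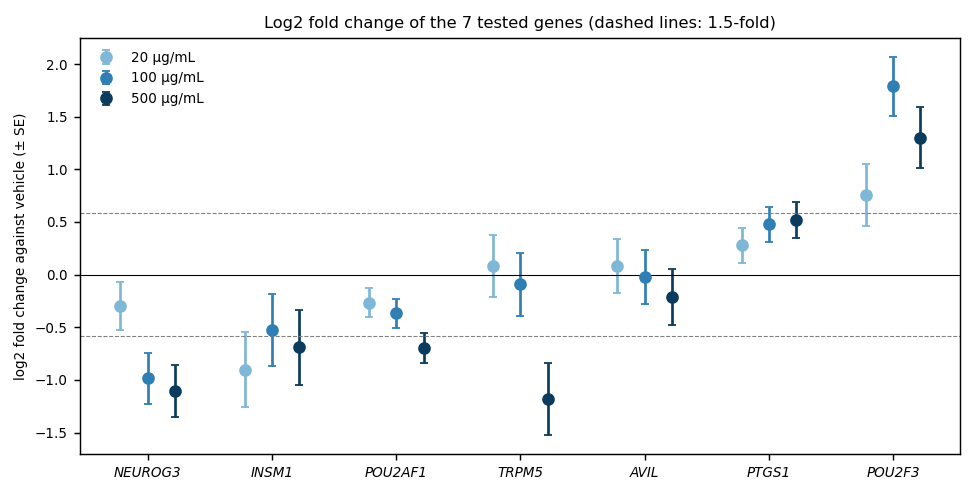
Log2 fold change against vehicle (y axis, ± SE from the edgeR fit) of the 7 genes with enough counts at 20, 100 and 500 µg/mL; dashed lines mark 1.5-fold. POU2F3 peaks at 100 µg/mL (1.79), and NEUROG3, POU2AF1 and TRPM5 are lowest at 500 µg/mL (−1.10, −0.70 and −1.18).

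The effector genes of tuft cells did not share one direction. TRPM5 (chr11:2404515-2444514 on the minus strand, 29 exons) had 20, 31 and 24 counts in vehicle, 18, 42 and 26 at low dose, 22, 23 and 28 at medium dose and 8, 7 and 16 at high dose. The mean was 1.03 ± 0.0830 CPM in vehicle, 1.09 ± 0.436 at low dose, 0.969 ± 0.201 at medium dose and 0.449 ± 0.0771 at high dose. Only the high-dose libraries (0.360, 0.496 and 0.492 CPM) lay below all vehicle libraries (0.940 to 1.10 CPM). The log2 fold change of −1.18 (SE 0.34) there did not pass, and it passed without high-dose replicate 2 (−1.22) or low-dose replicate 1 (−1.17).

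PTGS1 (chr9:122370530-122395703 on the plus strand, 11 exons), with the most counts of the 10 genes, had 127, 257 and 182 counts in vehicle, 279, 270 and 191 at low dose, 240, 288 and 280 at medium dose and 271, 103 and 411 at high dose. The CPM were 6.99, 7.79 and 8.00 in vehicle, 9.58, 9.51 and 8.55 at low dose, 11.0, 9.40 and 11.5 at medium dose and 12.2, 7.29 and 12.6 at high dose. All libraries of the low and medium doses lay above all vehicle libraries, as did 2 of the 3 high-dose libraries. The exception was high-dose replicate 2. The log2 fold change was 0.28 (SE 0.17), 0.48 (SE 0.17) and 0.52 (SE 0.17) in order of dose and did not pass. Without high-dose replicate 2 it was 0.71 (SE 0.10) at high dose and passed, as 4.90% of 15674 genes did in that fit (1.93% above and 2.97% below). With an offset for transcript length, chosen after seeing the data, it was 0.51 (SE 0.13) and did not pass.

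AVIL, the actin bundler of the tuft cell brush, had 21, 31 and 29 counts in vehicle, 37, 32 and 25 at low dose, 20, 40 and 25 at medium dose and 29, 8 and 30 at high dose. Its ranges overlapped that of vehicle at every dose. The log2 fold change was 0.08 (SE 0.25), −0.02 (SE 0.26) and −0.21 (SE 0.27), and −0.02 at high dose without high-dose replicate 2. AVIL (chr12:57797376-57818734, minus strand) overlaps TSFM, which lies on the opposite strand and had 12852 counts in all. The library kit keeps strand but the setting used in counting is not given in the sources used here, so the AVIL level is uncertain.

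**Figure D3:**
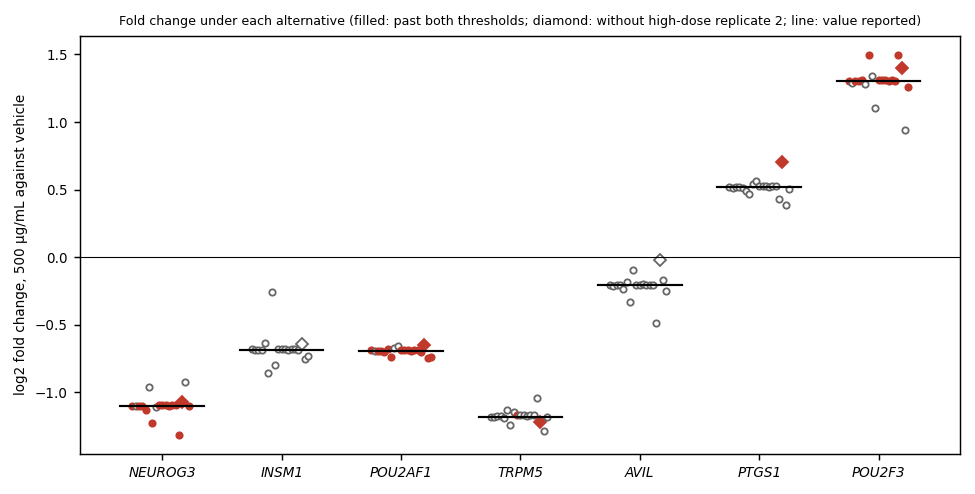
Log2 fold change at 500 µg/mL against vehicle (y axis) under each alternative processing; the line is the value reported, filled points passed both thresholds and diamonds leave out high-dose replicate 2. No point crosses 0, and PTGS1 passes only as a diamond (0.71).

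The genes whose profile over the 12 libraries was most like that of each member were found for the 4 genes with a mean of at least 1 CPM, as the smallest root mean square difference of log2 CPM centred on the vehicle mean. For POU2F3 they were ADGRF1 (0.362), ALPG (0.364) and TIPARP (0.382), where the median over all genes was 1.16. For POU2AF1 they were DPYSL2 (0.124), ZC3H6 (0.128) and GALNT4 (0.133), beside a median of 0.481. PTGS1 was nearest to CCDC9B (0.0817), ABCC3 (0.0886) and CSPG4 (0.0912), beside 0.462, and AVIL to NFYC-AS1 (0.139), TECPR2 (0.141) and ALOX12-AS1 (0.150), beside 0.382. The POU2F3 neighbours were the loosest of the 4 sets, and all 3 of them were higher at high dose, by 1.27 (ADGRF1), 1.08 (ALPG) and 1.51 (TIPARP) on the log2 scale. That direction follows from how they were picked, since the match used these same libraries and POU2F3 was itself higher there.

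The genes and lists that follow were also chosen with earlier results of these data known. Their p-values, pass counts and medians are therefore a description and not independent evidence. Upstream of NEUROG3, the secretory specifier ATOH1 fell with the high dose. Its CPM were 4.95, 3.97 and 4.75 in vehicle, 3.78, 4.86 and 3.45 at low dose, 2.39, 2.97 and 2.83 at medium dose and 1.49, 1.84 and 2.18 at high dose. The medium-dose and high-dose libraries lay below every vehicle library. The high-dose log2 fold change was −1.28 (SE 0.18), with an adjusted p of 0.00139 by edgeR's quasi-likelihood test with Benjamini–Hochberg adjustment, and it passed under all 19 alternatives that gave a value. The medium-dose value was −0.72 (adjusted p = 0.0816 by edgeR) and passed without high-dose replicate 2 (−0.71, adjusted p = 0.0149). SOX4, a factor of early endocrine progenitors, fell from 163 ± 22.7 to 96.2 ± 10.6 CPM at high dose (log2 −0.76, SE 0.11, edgeR adjusted p = 0.0012), and every library of every dose lay below every vehicle library. Its medium-dose log2 fold change of −0.57 (edgeR adjusted p = 0.0246) was under 1.5-fold and passed without vehicle replicate 3 (−0.62).

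Among 14 genes of Notch signaling and the secretory choice, 11 were tested. Of these, 1 rose and 2 fell at high dose, where 2.93% of all genes passed, and the median log2 fold change was −0.15, beside 0.01 over all genes tested. Without high-dose replicate 2 the list median was 0.08. DLL4, a Notch ligand, fell from 5.85 ± 0.642 to 2.33 ± 0.843 CPM (log2 −1.25, SE 0.22, edgeR adjusted p = 0.00458). Its high-dose CPM of 2.21, 1.56 and 3.23 all lay below the vehicle libraries (5.50, 5.46 and 6.59), and of the single libraries left out, high-dose replicate 2 was the one without which DLL4 passed at medium dose (−0.61). HES6, a factor that opposes HES1, fell from 21.0 ± 1.52 to 13.7 ± 1.17 CPM at medium dose (log2 −0.62, SE 0.13, edgeR adjusted p = 0.0406) and to 12.7 ± 2.83 CPM at high dose (−0.74, SE 0.13, edgeR adjusted p = 0.00513). The medium-dose call of HES6 was lost without any 1 vehicle, low-dose or medium-dose library (adjusted p 0.0797 to 0.207, log2 −0.69 to −0.56).

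JAG2, another Notch ligand, rose from 10.3 ± 0.715 to 15.9 ± 1.73 CPM at high dose (log2 0.63, SE 0.11, edgeR adjusted p = 0.00393). Its fold change was under 1.5 without vehicle replicate 1 (0.58) or high-dose replicate 1 (0.58). The most abundant others of that list were NOTCH2 (0.05 on the log2 scale, SE 0.22), NOTCH1 (−0.15, SE 0.22) and the Notch target HES1 (−0.43, SE 0.16), which did not pass, and NOTCH1 turned to 0.13 without high-dose replicate 2. The high-dose calls of DLL4 (edgeR adjusted p = 0.0712), HES6 (0.101) and JAG2 (0.0728) were each lost with edgeR on vehicle and 1 dose. The markers of goblet cells, another product of the same branch, summed over 7 genes to 281 to 290 CPM in vehicle, 251 to 259 at low dose, 230 to 231 at medium dose and 167 to 230 at high dose. Most of that sum was AGR2 (211 CPM in vehicle and 146 at high dose), which did not pass. TFF3 was the gene that did by edgeR, and DESeq2 also called FCGBP. The part of these Notch and goblet genes in the changes of NEUROG3 and ATOH1 was not tested.

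**Figure D4:**
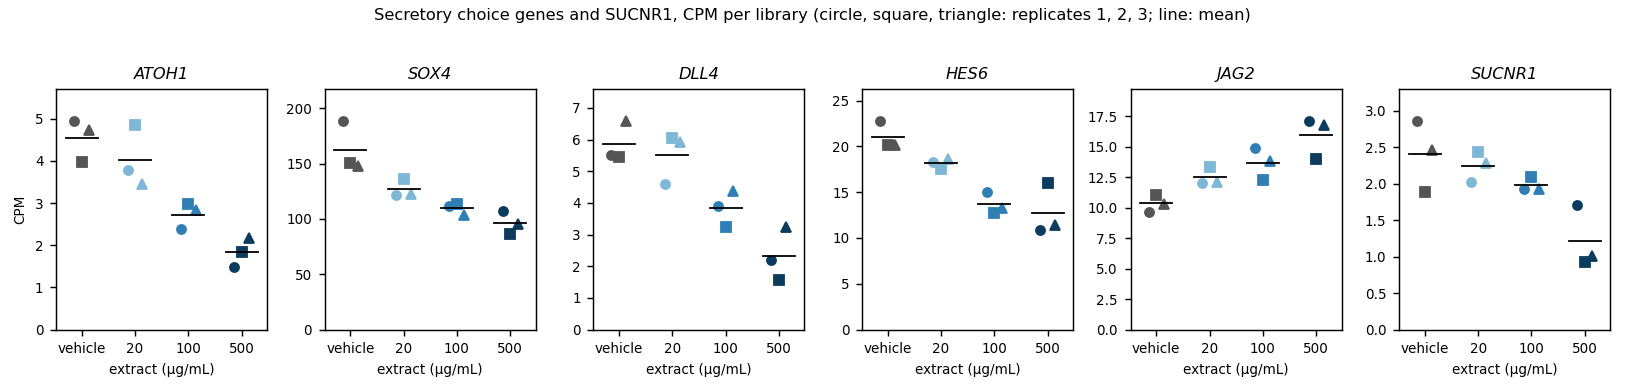
CPM per library (y axis, starting at 0, own scale per gene) of ATOH1, SOX4, DLL4, HES6, JAG2 and SUCNR1 by extract concentration in µg/mL; symbols are replicates 1, 2 and 3 and the line is the group mean. ATOH1 and DLL4 are lowest at 500 µg/mL (means of 1.84 and 2.33 CPM), and JAG2 is highest there (15.9 CPM).

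Of 68 other enteroendocrine genes, 12 were at 0 in every library, and 26 were tested. At the high dose 0 rose and 2 fell, ATOH1 and SOX4, with a median log2 fold change of −0.21. At medium dose 0 passed (median −0.11), and at low dose 0 passed (median −0.04). Over all genes tested, 2.93% passed at high dose (1.26% above and 1.68% below), 0.676% at medium dose and 0.111% at low dose. The medians over all genes were 0.01, −0.01 and −0.00 in the same order. At an unadjusted p under 0.05 in edgeR, there were 4 of these enteroendocrine genes at medium dose and 1 at low dose. DESeq2 called 1 of them (ATOH1) at medium dose and 0 at low dose. Of the other factors, RFX3 (0.01, SE 0.09), ISL1 (−0.32, SE 0.10) and PROX1 (−0.36, SE 0.15) were the most abundant, and none passed. The granule genes had 8 of 22 members tested and 0 that passed at high dose, with PAM, the peptide amidating enzyme, at −0.22 (SE 0.07) and SYT7, a calcium sensor of vesicle release, at −0.00 (SE 0.18) on the log2 scale. At an unadjusted p under 0.05 in edgeR there was 1 granule gene, 0 hormone genes and 0 receptors, and DESeq2 called 0 in each list. Only 2 of 17 hormone genes were tested. These were the serotonin and monoamine enzymes DDC (12.9 CPM in vehicle and 14.1 at high dose) and TPH1 (0.579 and 0.645), neither of which passed, and UCN3, below the filter, was next in level at 0.197 CPM in vehicle. The receptors had 5 of 12 tested and 0 that passed, including the fatty acid receptor FFAR4 (94.3 CPM in vehicle and 94.0 at high dose) and the somatostatin receptors SSTR1 (−0.22, SE 0.18) and SSTR5 (−0.19, SE 0.30). Without high-dose replicate 2, SYT7 was 0.22, DDC −0.03, TPH1 −0.01 and FFAR4 0.01 on the log2 scale, and none of them passed.

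Of 44 other tuft genes, 9 were at 0 in every library, and 19 were tested. At the high dose 0 rose and 1 fell, the succinate receptor SUCNR1, with a median log2 fold change of −0.21. At medium dose (median −0.07) and low dose (median −0.03) 0 passed. Over all genes tested, 2.93% passed at high dose (1.26% above and 1.68% below), 0.676% at medium dose and 0.111% at low dose. The medians over all genes were 0.01, −0.01 and −0.00 in the same order. Of the tuft genes 6 had an unadjusted p under 0.05 in edgeR at medium dose and 2 at low dose, and DESeq2 called 0 at both. SUCNR1 had 2.86, 1.88 and 2.46 CPM in vehicle and 1.71, 0.920 and 1.01 at high dose (log2 −0.95, SE 0.23, edgeR adjusted p = 0.0339). Its high-dose libraries lay below the vehicle ones, and it passed under 8 of 19 alternatives, with adjusted p-values from 0.0083 to 0.234, and was lost without any 1 low-dose or medium-dose library, vehicle replicate 1 or 3 or high-dose replicate 3 (log2 −0.95 to −0.78).

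The remaining coactivators and factors beside POU2F3 had log2 fold changes below 0 at high dose, all 4 of 4 tested, with a median of −0.41. Over all genes, 7534 of 15374 had a log2 fold change below 0 there. Of the 4 genes, 0 passed by edgeR (4 at an unadjusted p under 0.05) or DESeq2. POU2AF3 was 23.5 CPM in vehicle and 18.5 at high dose (log2 −0.34, SE 0.06, edgeR adjusted p = 0.0086), POU2AF2 was 7.67 and 5.90 (−0.40, SE 0.15, edgeR adjusted p = 0.151) and SOX9 was 145 and 108 (−0.42, SE 0.09, edgeR adjusted p = 0.0178). POU2AF3 and SOX9 met the adjusted p but not the fold. The high-dose libraries of POU2AF2 overlapped those of vehicle. ASCL2 was −0.59 (SE 0.21, edgeR adjusted p = 0.137) and passed without high-dose replicate 2 (−0.72, edgeR adjusted p = 0.0234). In the taste cascade, the inositol trisphosphate receptors ITPR3 (0.18, SE 0.18) and ITPR2 (−0.54, SE 0.21) and the muscarinic receptor CHRM3 (−0.30, SE 0.12) did not pass, and ITPR2 was −0.28 without high-dose replicate 2. The eicosanoid and cytokine genes other than PTGS1 had 4 tested, all above 0 at high dose, their median was 0.21 and 0 passed by edgeR (0 at an unadjusted p under 0.05) or DESeq2: ANXA1 was 0.27 (SE 0.16), IL17RB 0.16 (SE 0.08) and ALOX5, the leukotriene-forming lipoxygenase, 0.14 (SE 0.09). Without high-dose replicate 2, ANXA1 was −0.00 and the list median 0.15. KRT18 (3512 CPM on average), VIL1 (−0.21, SE 0.06) and PTPN6 (−0.18, SE 0.09) of the cytoskeleton list did not pass either.

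**Figure D5:**
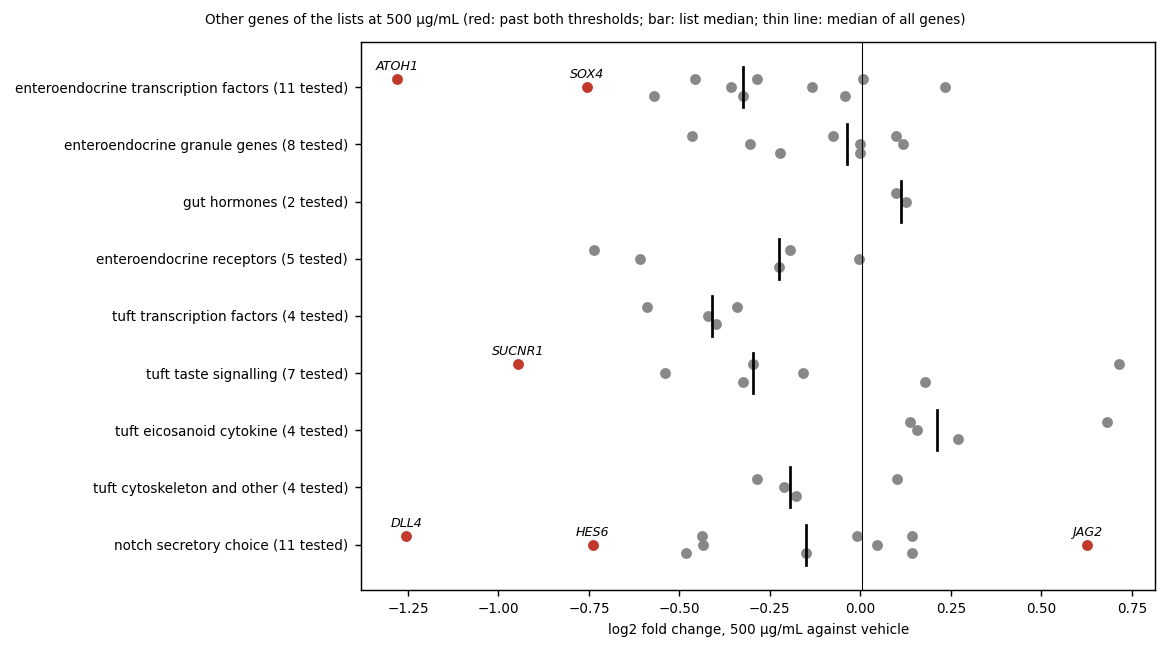
Log2 fold change at 500 µg/mL against vehicle (x axis) of the tested genes of 9 lists (rows, without the 10 genes); red points passed both thresholds, bars are list medians and the thin line is the median of all genes (0.01). The medians of the tuft factors (−0.41) and enteroendocrine factors (−0.32) lie furthest left, and JAG2 (0.63) is the only red point on the right.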

How the data were processed

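RNA from 12 HT29 libraries was analysed, 3 per group, grouped by title and treatment field. The longer treatment note describes Poria cocos, not ACD. By the paper's methods and the submitters' processing notes, the authors used FastQC, Trim Galore, STAR and RSEM 1.3.3 with GRCh38 (GRCh38.84 annotation). The deposited values are RSEM expected counts per gene, not normalized, which were rounded to whole numbers for the count tests. Symbols, positions and transcript lengths came from GENCODE release 44. Promoters came from RefSeq.

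Groups were compared in edgeR 4.0.16, run in R 4.3.3, by its robust quasi-likelihood test after filterByExpr (15374 genes) and TMM scaling, in 1 fit of the 4 groups. The study's test, DESeq2 1.42.0, was an alternative. Standard errors came from the F statistic, Benjamini–Hochberg adjustment covered all genes tested, and the biological coefficient of variation was 11.2%. Other alternatives were vehicle with 1 dose, DESeq2's size factors, no filter, at least 10 counts in every library, no minimum fold, a replicate block, and leaving out each library in turn. An offset for transcript length was added after seeing the data. The scripts were tested on simulated data. Tables and figures were made with pandas 2.3.3 and matplotlib 3.10.9 in Python 3.11.15.

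The 10 genes and all lists were chosen with earlier results of these data known. Named genes were the 10 members, list genes that passed at high dose, up to 3 of the most abundant others per list, and the 3 most similar profiles per member. A gene under this rule is not reported here. No 2 libraries were duplicates. Total counts limit the precision, and Poisson intervals cover counting error only.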

Additional observations from a re-analysis of the deposited data

How the results depend on the processing

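Of the 10 genes, 3 passed at high dose and 1 at medium dose. At the high dose the count was 0 with edgeR on vehicle and 1 dose, and 0 to 5 with 1 library left out: 0 without vehicle replicate 3, 1 without vehicle replicate 2 (NEUROG3) or high-dose replicate 3 (POU2AF1), and 5 without high-dose replicate 2, which added PTGS1 and TRPM5. At the medium dose it was 0 to 2 with 1 library left out, and at low dose 0 under every alternative. Other enteroendocrine genes gave 2 (ATOH1 and SOX4), 1 with edgeR on vehicle and 1 dose (ATOH1), and 2 to 2 with 1 library left out. Other tuft genes gave 1 (SUCNR1), 0 with edgeR on vehicle and 1 dose, 3 with no minimum fold change (POU2AF3, SOX9 and SUCNR1), and 0 to 2 with 1 library left out, the 2 being ASCL2 and SUCNR1. The cause was not tested. No fold change of the 7 tested genes changed sign at high dose. The widest ranges with 1 library left out were those of INSM1 (−0.86 to −0.26) and POU2F3 (0.94 to 1.50).

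Same-numbered vehicle and high-dose libraries correlated at −0.49, −0.49 and 0.37 in their deviations from the group means. Differently numbered ones correlated from −0.53 to 0.54, as strongly, so these values cannot settle whether the replicate numbers mark pairs. With the replicate block, other tuft genes gave 0 at high dose, and POU2F3 no longer passed there. NEUROG3, INSM1 and TRPM5 rest on 5 to 42 counts per library, which limits what a difference can show.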

Other observations

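Goblet cell and absorptive genes gave a further view of lineage in these libraries. TFF3, the trefoil peptide of goblet cells, fell from 9.03 to 5.71 CPM at high dose (log2 −0.67, SE 0.17, edgeR adjusted p = 0.0387), but it passed under 7 of 19 alternatives only. AGR2, a goblet cell disulfide isomerase, and SPINK4 did not pass with all libraries and passed without high-dose replicate 2. In the fit without that library 4.90% of 15674 genes passed (1.93% above and 2.97% below). With all libraries, DESeq2 called FCGBP at high dose as well as TFF3. All 5 goblet markers tested had a log2 fold change below 0 at high dose, with a median of −0.67, beside 0.01 over all genes tested. The 8 absorptive markers summed to 254 to 266 CPM in vehicle and 263 to 372 at high dose, with SLC26A3 at 0, and 0 of 4 tested passed by edgeR (3 at an unadjusted p under 0.05) or DESeq2. Most of the sum was KRT20, which reached 352 CPM in 1 high-dose library and whose log2 fold change of 0.26 was 0.09 without high-dose replicate 2. Without that library CA2, at −0.43 with all libraries, was −0.59 and passed (edgeR adjusted p = 0.000235).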
